A study of Mus musculus with 8 samples.

Results

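Ano10, Tmem150c, Cep128, Efnb3, Gpr22, P3h4, Dglucy and Lrrc15 are 8 genes, of 13227 in the deposited count tables, selected on their measured fold change because their level was lower in FASTKD1 transgenic than in non-transgenic mouse hearts. The study compared hearts of male FVB/N mice at 3 months of age, 4 of genotype NTG (non-transgenic, lettered A, B, D and E) and 4 of genotype TG (with the FASTKD1 transgene, lettered A, B, C and E), by RNA sequencing. The series title calls the overexpression cardiac-specific. The promoter that drives the transgene and the number of founder lines are not given in the sources used here, and both groups share strain, sex label and age. FASTKD1 is a mitochondrial RNA-binding protein.

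The levels in these 8 hearts chose the genes, so the differences between the groups are given below as a description, without a test. The members are not the 8 largest falls without exception. Of the 30 genes that were lower at an adjusted p under 0.05 and had an average log2 CPM (counts scaled to a common library size, log scale) of at least 0, they stood at places 2, 7, 11, 12, 15, 19, 20 and 21 by fold change. Gm34302, Kcnv2, Ces1d, Tmod4, A530016L24Rik, Tnnt1 and several noncoding genes lay among them and are not members. The member with the smallest difference was Lrrc15, at -0.54 on the log2 scale, and the next gene in the order, Lpl, lay just outside at -0.53.

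The members have no single known pathway in common. Ano10 belongs to the anoctamins, membrane proteins of which some are calcium-activated chloride channels and others move lipids between the leaflets of a membrane; loss of its function in humans causes a recessive ataxia. Tmem150c encodes a membrane protein that has been linked to stretch-activated currents. Gpr22 encodes an orphan G protein-coupled receptor known from heart and brain, and Efnb3 encodes ephrin-B3, a membrane-bound ligand of Eph receptor tyrosine kinases that guides axons. Cep128 is a protein of the subdistal appendages of the mother centriole, the structure that anchors microtubules and from which a primary cilium grows. Dglucy is the mitochondrial enzyme that cyclises D-glutamate. P3h4 is an endoplasmic reticulum protein that works with P3h3 and the lysyl hydroxylase Plod1 in the modification of collagen. Lrrc15 is a leucine-rich repeat membrane protein best known from fibroblasts activated by TGF-beta.

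The members' shared direction between the groups follows from how they were picked, so their promoters were compared only as a description. Each was taken as 300 bases from 250 before to 50 after the annotated start (RefSeq, GRCm38.p6). An entry was matched for 6 of the 8: Ano10, Tmem150c, Cep128, Gpr22, Dglucy and Lrrc15. The first annotated start was used for Tmem150c, which has 3. The 4 shown here span the range of base composition among them. Capitals mark every match to the letters searched on both strands: TATAAA for the TATA box, GGGCGG for the GC box, CCAAT for the box of that name, TGACGTCA for the cyclic AMP response element, TTGCATCA for the composite element of ATF4 and C/EBP, CACGTG for the E-box, TAAAAATA for the MEF2 core, AGATAA for the GATA site and CATTCC for the M-CAT. None of these matches overlapped another in the 4 sequences.
Ano10 promoter, chr9:122294374-122294673, minus strand: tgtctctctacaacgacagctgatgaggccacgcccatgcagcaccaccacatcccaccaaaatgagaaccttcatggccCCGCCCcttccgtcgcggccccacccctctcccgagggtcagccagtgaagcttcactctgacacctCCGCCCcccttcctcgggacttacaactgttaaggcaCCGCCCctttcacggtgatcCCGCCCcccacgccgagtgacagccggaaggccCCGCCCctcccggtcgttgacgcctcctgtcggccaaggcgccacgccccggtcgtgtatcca
Lrrc15 promoter, chr16:30283205-30283504, minus strand: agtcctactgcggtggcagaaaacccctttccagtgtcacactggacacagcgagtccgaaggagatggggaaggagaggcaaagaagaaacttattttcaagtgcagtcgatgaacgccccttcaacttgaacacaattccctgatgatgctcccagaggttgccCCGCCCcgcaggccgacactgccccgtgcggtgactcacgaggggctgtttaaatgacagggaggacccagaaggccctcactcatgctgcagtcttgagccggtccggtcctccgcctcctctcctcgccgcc
Gpr22 promoter, chr12:31713834-31714133, minus strand: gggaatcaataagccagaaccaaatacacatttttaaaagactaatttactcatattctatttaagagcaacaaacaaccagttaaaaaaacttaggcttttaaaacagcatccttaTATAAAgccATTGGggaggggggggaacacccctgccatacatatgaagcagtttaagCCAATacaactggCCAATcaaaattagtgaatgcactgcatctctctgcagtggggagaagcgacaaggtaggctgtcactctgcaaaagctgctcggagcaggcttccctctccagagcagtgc
Dglucy promoter, chr12:100778807-100779106, plus strand: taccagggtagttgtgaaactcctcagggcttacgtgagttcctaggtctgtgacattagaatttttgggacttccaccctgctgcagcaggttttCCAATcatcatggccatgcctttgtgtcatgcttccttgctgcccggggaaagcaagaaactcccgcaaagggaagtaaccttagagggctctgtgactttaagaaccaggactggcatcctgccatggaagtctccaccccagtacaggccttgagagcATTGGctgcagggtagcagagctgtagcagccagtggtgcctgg
The promoters differed in base composition and in the matches found. Whether any match works as a promoter element was not tested. Ano10 had 65.7% G and C, 5 GC boxes and a ratio of observed to expected CpG of 0.833, above the median of 0.761 over the promoters of 10061 tested genes. Gpr22 had 43% G and C, a CpG ratio of 0.144, 1 TATA box and 3 CCAAT boxes, and 3.62% of promoters had a lower ratio. Dglucy, with a CpG ratio of 0.143 and 2 CCAAT boxes, was similarly poor in CpG. Lrrc15 (0.624), Tmem150c (0.601) and Cep128 (0.493) lay between them.

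No motif of the set was found in all 6 promoters. The GC box was in 3 of them (Ano10, Cep128 and Lrrc15) and in 64.1% of all promoters, the CCAAT box in 2 (Gpr22 and Dglucy) and in 38.4%, the TATA box in Gpr22 and in 7.35%, and the GATA site in Cep128 and in 6.26%. The composite element of ATF4 and C/EBP was in 0 of the 6 and in 0.596% of all promoters. Matches to the cyclic AMP response element (3.21% of all promoters), the E-box (10.3%), the MEF2 core (1.30%) and the M-CAT (12.1%) were also in 0 of the 6.

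Library totals ran from 44584359 to 55769859 counts. Fastkd1 stood at 8845 to 11516 CPM in the transgenic hearts and at 26.3 to 33.8 CPM in 3 of the non-transgenic hearts. The heart labelled non-transgenic D stood apart at 192 CPM, and it had 0 counts (a count that allows up to 3) over 4 Y-linked genes, against 10372 to 15914 in the other hearts, although it is labelled male. The summed atrial markers also set it apart, at 640 CPM against 41.8 to 124 CPM in the other non-transgenic hearts, and transgenic heart A reached 3262 CPM against 46.5 to 292 CPM in the other transgenic hearts. Values without hearts D and A are therefore given for the fold changes of the members, Gpt2 and Tgfb2 and for some counts of genes. Marker sums, correlations between genes and the levels of neighbours are given only with both hearts included.

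Cardiomyocyte markers moved with the members. The summed level of 12 cardiomyocyte markers was 86446 to 98418 CPM in non-transgenic and 69697 to 74440 CPM in transgenic hearts, with no overlap, although 0 of the 12 passed the edgeR test alone (median log2 fold change -0.31). The 10 endothelial markers also did not overlap (1346 to 1637 against 1224 to 1293 CPM). Those of fibroblasts (2412 to 2800 against 2272 to 3114 CPM), mural cells (2960 to 3183 against 2503 to 3136 CPM) and macrophages (305 to 464 against 301 to 437 CPM) overlapped, as did lymphocyte, Schwann and neuronal, mesothelial, adipocyte, erythroid and skeletal muscle markers. Of the markers outside the cardiomyocyte list, 1 passed the test: Uchl1 of the Schwann and neuronal list, which rose from 4 to 8.67 CPM (edgeR adjusted p = 0.00565). Only 1 of 8 lymphocyte and 2 of 8 skeletal muscle markers were among the genes tested, so those lists say little about these cells. No tested marker of any list was at 0 in all hearts. The part of the marker differences in the members' levels was not tested. In whole hearts, fewer cells of a type and less RNA per cell cannot be told apart.

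All 8 members had every transgenic heart below every non-transgenic heart, as did 2.80% of the 13226 genes tested (4.58% had every transgenic heart above), and all 8 were among the 0.242% called lower by edgeR. Both follow from how the members were picked. Their median log2 fold change was -0.88, beside 0.01 for all genes tested.

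**Figure D1:**
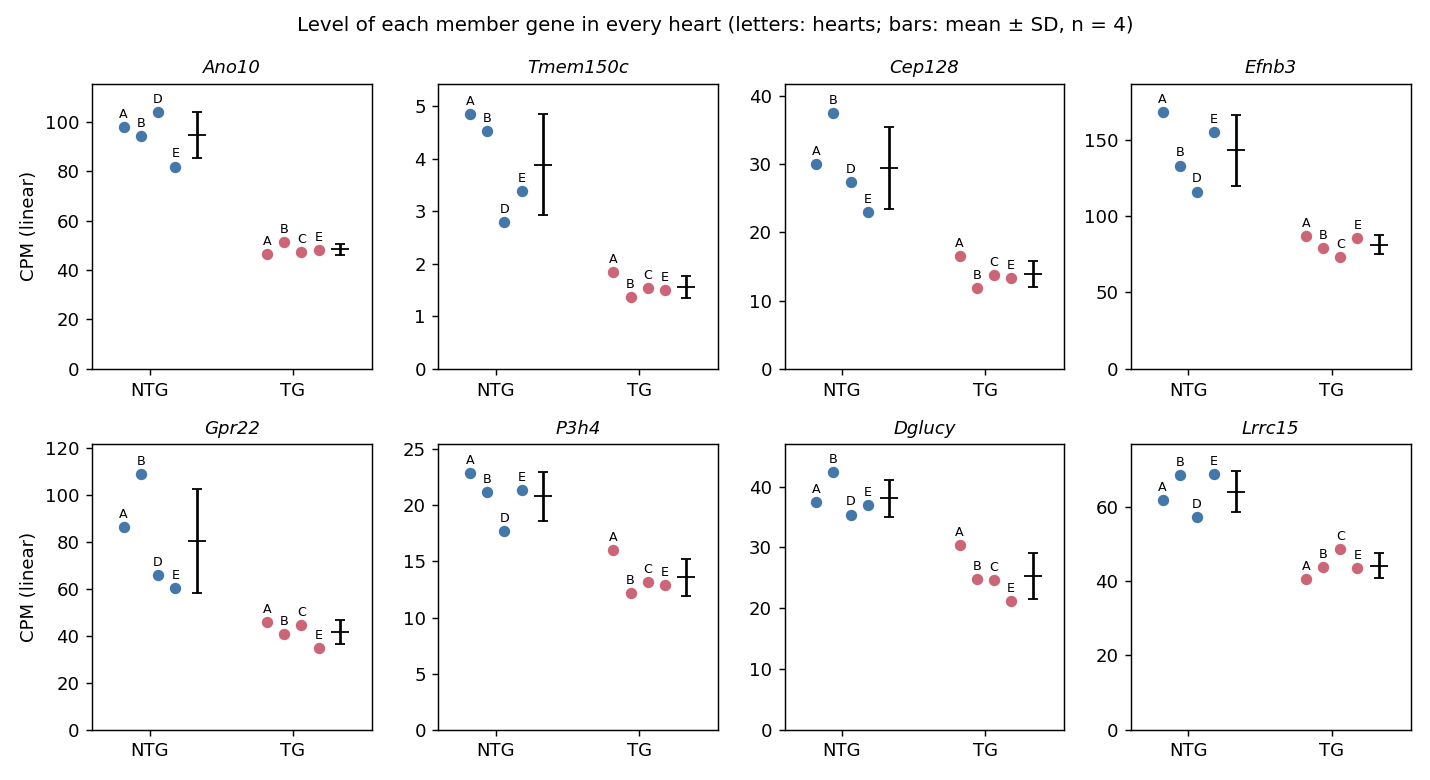
CPM (linear axis from 0) of each member gene in every heart, with non-transgenic (NTG) hearts in blue and transgenic (TG) hearts in red, letters naming hearts and black bars giving the mean ± SD (n = 4 each). In each of the 8 panels the 4 transgenic hearts lie below the 4 non-transgenic hearts, and Gpr22 shows the widest spread among non-transgenic hearts as a ratio of highest to lowest (1.8), from 60.6 to 109 CPM.

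Ano10 (ENSMUSG00000037949; GRCm38 chromosome 9, 122175874 to 122294423, minus strand) was the member with the narrowest spread in transgenic hearts. It stood at 97.9 (A), 94.1 (B), 104 (D) and 81.9 (E) CPM in non-transgenic hearts and at 46.6 (A), 51.3 (B), 47.2 (C) and 48.3 (E) CPM in transgenic hearts. The highest transgenic heart was at 0.626 of the lowest non-transgenic heart, and the transgenic mean was 51.2% of the non-transgenic mean. This is a log2 fold change of -0.97 (SE 0.09), and of -0.90 without hearts D and A, the only member whose difference was smaller without them. The heart labelled non-transgenic D, the one with raised Fastkd1, had the highest Ano10 level of all 8 hearts.

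Tmem150c (ENSMUSG00000050640; chromosome 5, 100077872 to 100159808, minus strand) had the largest fold difference and the fewest counts of the members, 68 to 214 per heart. It stood at 4.85 (A), 4.53 (B), 2.79 (D) and 3.39 (E) CPM in non-transgenic hearts and at 1.84 (A), 1.36 (B), 1.54 (C) and 1.5 (E) CPM in transgenic hearts. Its log2 fold change was -1.32 (SE 0.21). It shares 212 exon bases with the antisense gene Tmem150cos. Hearts D (NTG) and A (TG) were the closest of the opposite groups, and without them the log2 fold change was -1.53.

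Gpr22 (ENSMUSG00000044067; chromosome 12, 31706867 to 31713947, minus strand) lies within the gene Cog5 on the opposite strand and shares no exon bases with it. Its levels were 86.4 (A), 109 (B), 66 (D) and 60.6 (E) CPM in non-transgenic hearts and 46 (A), 40.8 (B), 44.7 (C) and 34.9 (E) CPM in transgenic hearts. Hearts B and A were high and hearts D and E low among the non-transgenic hearts, a 1.8-fold range that no other member exceeded. The log2 fold change was -0.95 (SE 0.18), and -1.09 without hearts D and A. Whether the library kit marks strand is not given in the sources used here, so intronic reads of Cog5 cannot be told apart from reads of Gpr22. Cog5 itself stood at 58.6 ± 11.7 and 49 ± 2.41 CPM (SD, n = 4 each), with a log2 fold change of -0.26 (edgeR adjusted p = 0.534).

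Efnb3 (ENSMUSG00000003934; chromosome 11, 69554092 to 69560205, minus strand) was the most abundant member. It stood at 168 (A), 133 (B), 116 (D) and 155 (E) CPM in non-transgenic hearts and at 86.7 (A), 79.2 (B), 73.4 (C) and 85.5 (E) CPM in transgenic hearts. The log2 fold change was -0.82 (SE 0.12), and -0.94 without hearts D and A. Heart D was the lowest non-transgenic heart, still above every transgenic heart.

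Cep128 (ENSMUSG00000061533; chromosome 12, 90998492 to 91384409, minus strand) had a transgenic mean at 47.1% of the non-transgenic mean. The hearts stood at 30 (A), 37.4 (B), 27.4 (D) and 23 (E) CPM without the transgene and at 16.5 (A), 11.9 (B), 13.8 (C) and 13.3 (E) CPM with it. The log2 fold change was -1.09 (SE 0.16), and -1.21 without hearts D and A. As for Gpr22, heart B was the highest and heart E the lowest non-transgenic heart.

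Dglucy, P3h4 and Lrrc15 had smaller differences. Dglucy (ENSMUSG00000021185; chromosome 12, 100779057 to 100896981, plus strand) stood at 37.4 (A), 42.4 (B), 35.4 (D) and 37 (E) CPM in non-transgenic and at 30.4 (A), 24.8 (B), 24.6 (C) and 21.2 (E) CPM in transgenic hearts. Transgenic heart A was the high one of its group and lay at 0.859 of the lowest non-transgenic heart. Its fitted log2 fold change was -0.59 (SE 0.12), and -0.73 without hearts D and A.

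P3h4 (ENSMUSG00000006931; chromosome 11, 100408456 to 100414836, minus strand) had the smallest gap between the groups, with the highest transgenic heart at 0.903 of the lowest non-transgenic heart. Its levels were 22.9 (A), 21.2 (B), 17.7 (D) and 21.4 (E) CPM in non-transgenic hearts and 16 (A), 12.2 (B), 13.2 (C) and 12.9 (E) CPM in transgenic hearts. Hearts D and A again were the nearest hearts of the opposite groups. The log2 fold change was -0.62 (SE 0.12), and -0.77 without them.

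Lrrc15 (ENSMUSG00000052316; chromosome 16, 30269302 to 30283256, minus strand) stood at 61.7 (A), 68.4 (B), 57.2 (D) and 68.7 (E) CPM in non-transgenic hearts and at 40.5 (A), 43.8 (B), 48.6 (C) and 43.4 (E) CPM in transgenic hearts. Here transgenic heart A was the lowest of its group, unlike for most other members. The log2 fold change was -0.54 (SE 0.09), and -0.55 without hearts D and A.

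Per kilobase of annotated exon, the order of levels in non-transgenic hearts was Efnb3 (44.9 ± 7.14 CPM per kilobase; SD, n = 4), Gpr22 (17.5 ± 4.78), Ano10 (16 ± 1.57), Lrrc15 (12.1 ± 1.05), P3h4 (9.56 ± 1.02), Dglucy (8.27 ± 0.657), Cep128 (2.09 ± 0.43) and Tmem150c (0.7 ± 0.174). The ranges of Gpr22 and Ano10 overlapped, as did those of P3h4 and Dglucy, and the other neighbours in this order did not. In transgenic hearts, Lrrc15 (8.3 ± 0.626) overlapped with Ano10 (8.18 ± 0.353), which overlapped with Gpr22 (7.58 to 9.98). Efnb3 lay at the 94.6th percentile of all genes tested on this scale in non-transgenic hearts. Most other members also lay high, from the 72.9th (Dglucy) to the 86.1th percentile (Gpr22). Only Cep128 (37.4th) and Tmem150c (15.4th) lay low.

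Single hearts took the same places for several members. The heart labelled non-transgenic D was the lowest of its group for 5 of the 8 members (Tmem150c, Efnb3, P3h4, Dglucy and Lrrc15), as it was for 26.2% of all genes tested and for 46.2% of the 370 genes with every transgenic heart below every non-transgenic heart. Transgenic heart A was the highest of its group for 6 of 8 (Tmem150c, Cep128, Efnb3, Gpr22, P3h4 and Dglucy), beside 34.5% of all genes and 38.9% of those 370. Ano10 was the reverse on both counts, with heart D the highest non-transgenic and heart A the lowest transgenic heart. The log2 spread was larger among non-transgenic than among transgenic hearts for 6 of the 8 members, and for 77.6% of all genes tested.

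**Figure D2:**
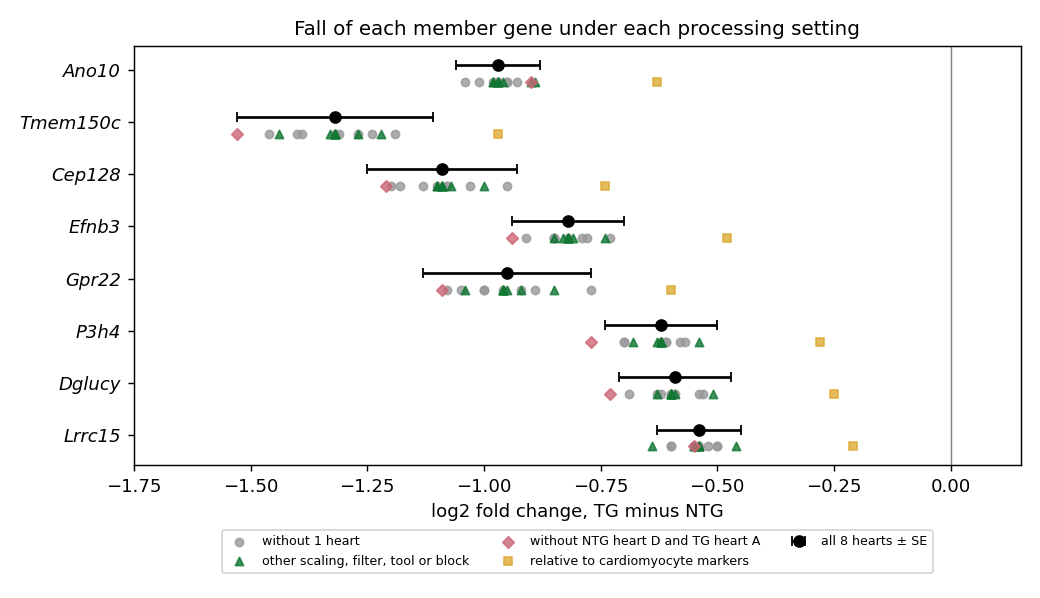
Log2 fold change (transgenic minus non-transgenic) of each member in the fit to all 8 hearts (black, ± SE) and, below it, without single hearts (grey), under other scalings, filters, tools or a block (green), without NTG heart D and TG heart A (red diamonds) and relative to the cardiomyocyte markers (yellow). All values are below 0, which follows from how the members were picked. The yellow squares lie nearest to 0 for all 8 members, from -0.97 for Tmem150c to -0.21 for Lrrc15. The marker sum was itself lower in transgenic hearts (log2 ratio of means -0.33), which moves every yellow value up by about that amount.

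Divided by the summed cardiomyocyte markers, a scale chosen after their difference was seen, the members split. The marker sum was itself lower in transgenic hearts (log2 ratio of means -0.33), so the division raises the log2 ratio of every gene by about that amount. The members were picked for their fall, so their share without overlap is given as a description. On this scale (CPM per 100000 CPM of markers), 5 of 8 still had every transgenic heart below every non-transgenic heart, as did 0.181% of genes tested: Ano10 (63.4 to 69.5 against 93.5 to 120), Tmem150c (1.84 to 2.64 against 3.23 to 4.93), Cep128 (16.1 to 23.7 against 26.2 to 39.4), Efnb3 (98.6 to 124 against 135 to 177) and Gpr22 (47.6 to 66 against 69.2 to 115). The groups overlapped for P3h4 (16.5 to 22.9 against 20.4 to 24.5), Dglucy (28.8 to 43.6 against 38 to 44.6) and Lrrc15 (58.1 to 65.2 against 62.7 to 78.4). For P3h4 and Dglucy the overlap came from transgenic heart A, the other transgenic hearts reaching at most 17.8 and 33.6. Without hearts D and A, 7 of 8 had no overlap. With fewer hearts per group, no overlap is easier to reach, and the share of all genes in that setting is not given here. The 7 of 8 therefore cannot be set against the 5 of 8.

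Within groups the members varied along different lines. After each log2 CPM was centred on its group mean, the 28 pairs of members had a median Pearson r of 0.17 over the 8 hearts, from -0.58 to 0.85, which describes libraries of shared depth and scaling. Cep128 and Gpr22 (0.85) and Tmem150c and P3h4 (0.85) were most alike, and Dglucy followed Gpr22 (0.69), Cep128 (0.65) and P3h4 (0.65). Efnb3 followed P3h4 (0.73) and Tmem150c (0.61) but not Gpr22 (-0.01) or Cep128 (-0.04). Lrrc15 followed none of the others above 0.20, and Ano10 ran against Lrrc15 (-0.58), P3h4 (-0.52) and Efnb3 (-0.45).

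**Figure D3:**
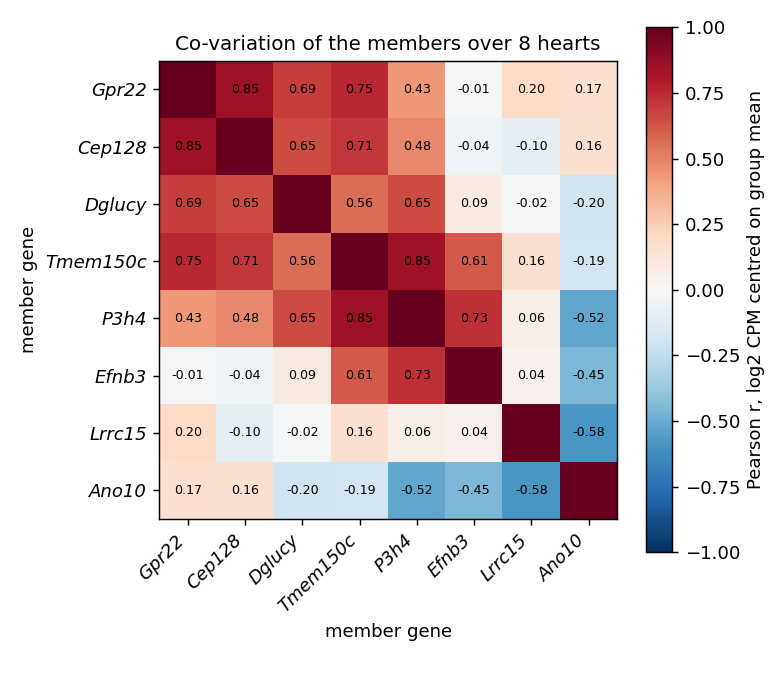
Pearson r between members over 8 hearts, from log2 CPM centred on the group mean (red positive, blue negative; both axes list the members). Gpr22, Cep128, Dglucy, Tmem150c and P3h4 form a positive block of 0.43 to 0.85, while Lrrc15 and Ano10 stand outside it.

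The genes most like each member by the same measure, among genes with a symbol and an average log2 CPM of at least 2, were Ybey and Dcaf12l1 for Ano10 (r = 0.968 and 0.965), Stom and Bend5 for Tmem150c (0.989 and 0.982), Gpcpd1 and Rac2 for Cep128 (0.976 each), and Peli2 and Nipsnap2 for Efnb3 (0.980 and 0.978). They were Zfp157 and Dcaf13 for Gpr22 (0.987 each), Galnt15 and Acox3 for P3h4 (0.985 and 0.979), Chn1 and Pcdhb22 for Dglucy (0.989 and 0.972), and Wdr1 and Nutf2 for Lrrc15 (0.959 and 0.942). These are the highest values over all such genes, from 8 hearts. None of the 16 passed the edgeR test between the groups (adjusted p from 0.192 for Gpcpd1 to 0.993 for Acox3). Of all genes tested, 1.25% passed. With so low a share, 16 genes cannot show whether likeness within groups goes with a difference between them.

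The relatives and partners of each member were tested in the same fit over all genes. Of 13226 genes tested, 1.25% passed in either direction, 1.01% higher and 0.242% lower in transgenic hearts. An unadjusted p under 0.05 from edgeR was found for 1421 of the 13226, the background for such counts in the lists below. DESeq2 called 249 genes higher and 159 lower over all genes, the background for its counts below. In 8 lists of companion genes, each counted without its member, 2 genes rose and 0 fell: Gpt2, a mitochondrial alanine aminotransferase, and Tgfb2, a TGF-beta ligand.

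**Figure D4:**
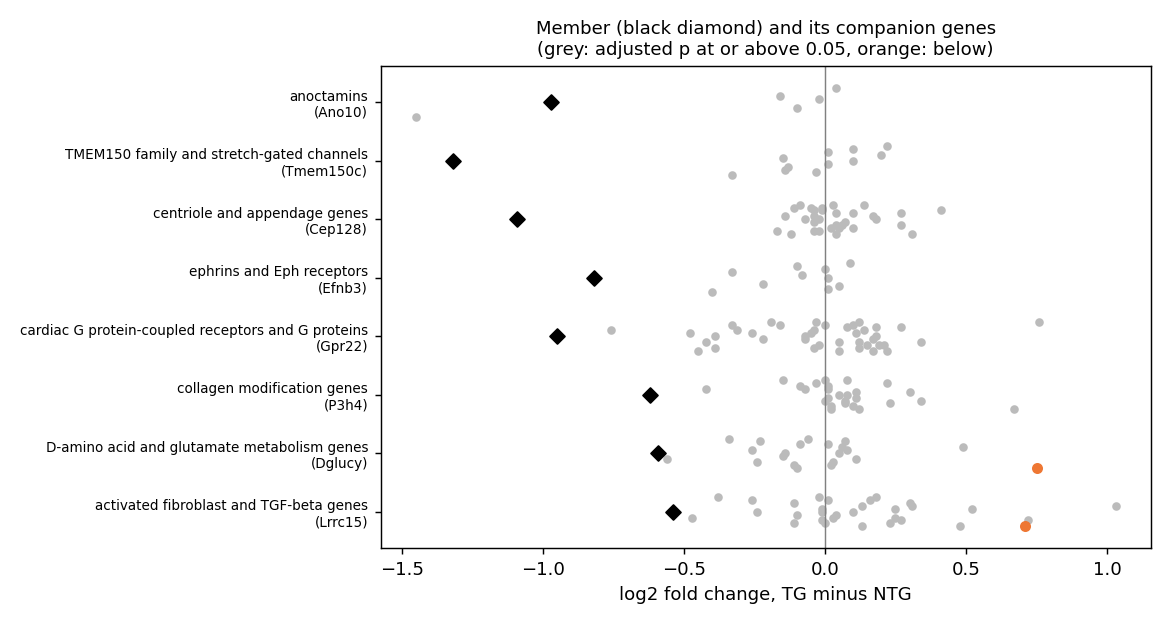
Log2 fold change (transgenic minus non-transgenic) of each member (black diamond) and of the tested companion genes of its list (dots; orange for an edgeR adjusted p under 0.05, grey for the rest). The diamond lies to the left of all its companions in 7 lists, the exception being Ano5 at -1.45 in the anoctamin list. The members were picked for their fall in this contrast and the companions were not, so this order is given as a description. The orange dots are Gpt2 and Tgfb2.

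Of 5 other anoctamins tested, 0 passed with edgeR, DESeq2 or limma-voom, and 1 had an unadjusted p under 0.05 (median log2 fold change -0.10). That gene was Ano5, an anoctamin known from muscle disease, with a log2 fold change of -1.45 (SE 0.53, edgeR adjusted p = 0.35). It stood at 6.69, 6.79, 1.54 and 4.74 CPM in NTG hearts (A, B, D, E) and at 3.54, 0.88, 0.862 and 1.98 CPM in TG hearts (A, B, C, E). Heart D (NTG) lay below transgenic hearts A and E, and without hearts D and A together Ano5 was the 1 anoctamin called lower. Ano8 (-0.10) and Ano4 (-0.16) had edgeR adjusted p of 0.854 and 0.794.

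Of 11 genes of the TMEM150 family and of stretch-gated channels, 0 passed with any of the 3 tools and 0 had an unadjusted p under 0.05 (median 0.01). Tmem150a, the nearest relative of Tmem150c, stood at 17.2 ± 2.73 and 16.8 ± 2.74 CPM (SD, n = 4 each). The lowest p in the list belonged to the cation channel gene Trpv2 (log2 fold change -0.33, edgeR adjusted p = 0.538), followed by Pkd2 (0.20, 0.723) and Trpc1 (-0.13, 0.734).

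Of 32 other centriole and appendage genes, 0 passed with any of the 3 tools, and 1, the subdistal appendage gene Nin, had an unadjusted p under 0.05 (log2 fold change 0.31, edgeR adjusted p = 0.363). Cep164, of the distal appendages, and Tubg1, gamma-tubulin, each had 0.27 (0.622 and 0.623). The list ran from -0.17 to 0.41 with a median of 0.02. Odf2, which encodes the appendage scaffold, was at 22 ± 2.2 and 22.8 ± 2.89 CPM (SD, n = 4 each).

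Of 10 other ephrins and Eph receptors, 0 passed with any of the 3 tools and 0 had an unadjusted p under 0.05 (median -0.04). The sister ligands Efnb1 (-0.08, edgeR adjusted p = 0.913) and Efnb2 (0.09, 0.866) stayed within the spread of the hearts, as did the receptors Ephb1 (-0.40, 0.586), Ephb3 (-0.10, 0.923) and Ephb4 (0.01, 0.99). Epha4, a receptor that ephrin-B3 is known to bind, stood at 83.6 ± 16.7 and 66.3 ± 23.3 CPM (SD, n = 4 each; edgeR adjusted p = 0.682).

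Of 40 cardiac G protein-coupled receptors and signal partners other than Gpr22, 0 passed with edgeR or limma-voom, 6 had an unadjusted p under 0.05, and DESeq2 called 1 higher and 2 lower. The median was 0.02. The lowest p belonged to Crhr2, a receptor for urocortins (log2 fold change -0.45, edgeR adjusted p = 0.0803), Adra1a, an alpha-adrenergic receptor (-0.76, 0.129), and Grk5, a receptor kinase (0.34, 0.143). In each of these 3 the hearts of the groups did not overlap, as for 7.38% of all genes tested in either direction.

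Of 26 other collagen modification genes, 0 passed with edgeR or limma-voom, 2 had an unadjusted p under 0.05 and DESeq2 called 1 higher (median 0.06). The partners of the P3h4 protein did not pass: P3h3 stood at 8.34 ± 2.49 and 9.12 ± 0.529 CPM and Plod1 at 83 ± 18.6 and 87.7 ± 16.2 CPM (SD, n = 4 each), with adjusted p from edgeR of 0.879 and 0.927. P3h2, a prolyl hydroxylase gene, had a log2 fold change of 0.67 (edgeR adjusted p = 0.104) and Fkbp10 of -0.42 (0.333). Lox, which crosslinks collagen and elastin, had 0.34 (0.57).

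Of 21 other genes of D-amino acid and glutamate metabolism, 1 rose, 0 fell and 20 did not pass (median -0.06). Gpt2 stood at 34.3, 24.9, 25.2 and 31 CPM in NTG hearts (A, B, D, E) and at 43.7, 53.8, 49.6 and 47.6 CPM in TG hearts (A, B, C, E), without overlap. The difference was 0.75 on the log2 scale (SE 0.12, adjusted p = 0.0119 with edgeR), and 0.74 without hearts D and A. The call was lost without transgenic heart B (0.0585) and with a block on title letters (0.169). Srr, which makes D-serine, had a log2 fold change of 0.49 (edgeR adjusted p = 0.0634), and Glud1, glutamate dehydrogenase, of -0.09 (0.798). Gpt, the cytosolic alanine aminotransferase, went the other way from Gpt2, at 37.5 ± 6.28 and 25.3 ± 2.43 CPM (SD, n = 4 each; edgeR adjusted p of 0.0902). Dglucy was lower while the other D-amino acid gene with a low p, Srr, lay higher in all 4 transgenic hearts, at 24.8 to 30.3 against 18.1 to 23.1 CPM.

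Of 31 other genes of activated fibroblasts and TGF-beta signalling, 1 rose, 0 fell and 30 did not pass (median 0.10). Tgfb2 stood at 11.8, 12.7, 17.1 and 14.5 CPM in NTG hearts (A, B, D, E) and at 20.8, 23.9, 21.1 and 26.4 CPM in TG hearts (A, B, C, E). The difference was 0.71 on the log2 scale (SE 0.14, adjusted p = 0.0342 with edgeR), and 0.87 without hearts D and A. The call was lost without non-transgenic heart A (0.113), B (0.0684) or E (0.106), without transgenic heart B (0.164), C (0.0844) or E (0.133), and with library totals only (0.144). Acta2, the smooth muscle actin of contractile fibroblasts and vessels, was at 131 ± 30.5 and 267 ± 75.4 CPM (SD, n = 4 each), without overlap and with an adjusted p of 0.0505 from edgeR. The sign for Lrrc15 was thus opposite to that of Tgfb2, while Lrrc32, another leucine-rich repeat gene, had a log2 fold change of -0.11 (0.905).

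The members did not lie side by side in the genome. Gpr22, Cep128 and Dglucy are on chromosome 12, which holds 3.52% of the genes tested, 59.3 and 9.39 megabases apart, and Efnb3 and P3h4 are on chromosome 11, 30.8 megabases apart. Of the 32 genes called lower, 6 were on chromosome 12 and 6 on chromosome 9, which holds Ano10 and 5.67% of the genes tested. Of the 32 tested genes nearest to the members, up to 2 on each side, 0 passed with edgeR or limma-voom. An unadjusted p under 0.05 was found for 6 of these neighbours, beside 1421 of all 13226 genes tested. DESeq2 called 1 neighbour higher and 3 lower, beside 249 higher and 159 lower over all genes. Their median log2 fold change was -0.06, and the lowest was that of Ston2 beside Cep128, at -0.74 (edgeR adjusted p = 0.216).

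Several of these neighbours share more than position. Cpn2, another leucine-rich repeat gene on the same strand 1.8 kilobases from Lrrc15, had the same log2 fold change as Lrrc15, -0.54 (SE 0.14, edgeR adjusted p = 0.119). It stood at 6.8, 5.91, 7.28 and 6.91 CPM in NTG hearts (A, B, D, E) and at 3.81, 4.28, 5.23 and 5.16 CPM in TG hearts (A, B, C, E), without overlap. Atp13a3, on the other side of Lrrc15, had a log2 fold change of 0.36 (edgeR adjusted p = 0.0981).

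Fkbp10, a collagen chaperone gene, lies 0.861 kilobases from P3h4 on the opposite strand, in the head-to-head arrangement. It stood at 13, 8.19, 12.6 and 12.4 CPM in NTG hearts (A, B, D, E) and at 9.76, 8.5, 8.24 and 8.04 CPM in TG hearts (A, B, C, E), where non-transgenic heart B lay among the transgenic hearts (edgeR adjusted p = 0.333). Snrk (-0.12) and Abhd5 (0.17) beside Ano10, Enoph1 (0.20) and Sec31a (0.21) beside Tmem150c, and Kdm6b (0.18) and Wrap53 (-0.17) beside Efnb3 had edgeR adjusted p from 0.533 for Sec31a to 0.873 for Kdm6b. The range was 0.689 to 0.984 for Gtf2a1 (-0.01) and Dio2 (0.53) beside Cep128, Dus4l (-0.19) beside Gpr22, Jup (-0.09) beside P3h4 and Rps6ka5 (-0.06) beside Dglucy.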

How the data were processed

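RNA from 8 hearts was taken up in Trizol and made into TruSeq libraries, per the labels' protocols. The authors deposited raw counts for each Ensembl gene, without scaling. The tools were cutadapt 1.15 and TopHat2 and the build GRCm38 (mm10), per the submitters' processing notes; the read counter and annotation release are not given in the sources used here. Symbols, positions and exon lengths came from GENCODE M21 on GRCm38, and 7 of 13227 identifiers had no entry. In R 4.3.3, edgeR 4.0.16 was run with filterByExpr (13226 genes kept), scaling by TMM and a two-sided quasi-likelihood F test between the genotypes, without covariates, with Benjamini-Hochberg adjustment over all genes and a threshold of 0.05. CPM uses TMM library sizes, and log2 CPM of single hearts a prior count of 2. The SE was taken as the size of the log2 fold change over the root of F.

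The members, companion lists and named-gene rule (genes past the threshold, otherwise the 3 lowest p of a list and the closest relative, the 2 most alike genes, and the nearest neighbours) were chosen with earlier results of these data known. Ston2 was singled out among the neighbours after their values were seen. Each library was taken as 1 animal, since titles give each heart a letter; where animals are not separate, p-values measure only the spread between libraries. Alternatives covered scaling, filters, DESeq2 1.42.0, limma 3.58.1 (voom), left-out hearts and a block on title letters. The fit was tested on simulated data. Some genes that the rule names are not reported here.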

Additional observations from a re-analysis of the deposited data

Results flagged for a closer look

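In the heart labelled non-transgenic D, Fastkd1 stood at 192 CPM, far from the other 3 non-transgenic hearts at 26.3 to 33.8 CPM: the gap to the nearest of them took 0.955 of the range of the group, above Dixon's critical value for 4 samples. Among 22 groups of 4 hearts checked in this way (the 8 members, Fastkd1, Gpt2 and Tgfb2 in both groups), it was the only one set apart, where chance sets apart about 1 in 20. None of the 8 members had a heart that stood apart in this way.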

How the results depend on the processing

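The members kept their direction under all 17 other settings tried, with log2 fold changes of -1.04 to -0.89 for Ano10, -1.53 to -1.19 for Tmem150c, -1.21 to -0.95 for Cep128, -0.94 to -0.73 for Efnb3, -1.09 to -0.77 for Gpr22, -0.77 to -0.54 for P3h4, -0.73 to -0.51 for Dglucy and -0.64 to -0.46 for Lrrc15. The members were picked for their fall in these same hearts, so the kept direction is no separate support for it. The ranges describe its size. Relative to the cardiomyocyte markers, a setting chosen after seeing the data, the 8 values ran from -0.97 to -0.21, with a median of -0.54. Over all genes, 133 rose and 32 fell; DESeq2 called 249 and 159, and 106 fell without hearts D and A together. Leaving out single hearts gave 103 to 168 that rose and 9 to 72 that fell; the lowest counts that fell were without transgenic heart B (9), non-transgenic heart A (10) and transgenic heart C (14), and the highest without non-transgenic hearts D (72) and B (50). The cause was not tested.

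In the companion lists, single left-out hearts gave 0 to 1 that fell for the receptors, 0 to 1 that rose and 0 to 1 that fell for collagen modification, 0 to 2 that rose and 0 to 1 that fell for glutamate metabolism, 0 to 2 that rose for activated fibroblasts, and 0 to 1 in each direction for the neighbours. With DESeq2, 1 receptor gene rose and 2 fell, 1 collagen gene rose, 2 glutamate genes rose and 1 fell, 2 fibroblast genes rose, and 1 neighbour rose and 3 fell. Without hearts D and A together, 1 anoctamin fell, 1 receptor gene rose, 2 collagen genes rose, 1 glutamate gene fell and 1 neighbour fell. Library totals only gave 2 glutamate genes that rose, and limma-voom 2 fibroblast genes that rose.

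With the replicate block on title letters, 21 genes fell in all, 0 glutamate genes rose and 1 fell, and 2 fibroblast genes rose. The labels do not say that a shared letter pairs animals. The deviations of same-lettered hearts correlated at 0.19 (A), -0.14 (B) and 0.40 (E), and not every heart was most like the one with its own letter. So few letters cannot show whether the hearts are paired. Tmem150c, with 68 to 214 counts per heart, is the member whose depth limits its precision most.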
